A study of Mus musculus with 8 samples.

Results

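The 10 transcription factors Tbx21, Eomes, Runx3, Zeb2, Gata3, Tcf7, Lef1, Tox, Id2 and Id3 were followed in T cells and natural killer (NK) cells of mouse submandibular gland, which is a salivary gland, and its draining lymph nodes. They were taken by symbol and not by a filter on measured values, though with earlier results of these data known. They are 10 of the 32285 genes in the deposited matrices. All 10 symbols were found. Tbx21, Eomes, Runx3 and Id2 had their highest level in NK cells in every library, though Id2 in C1 only within counting error. Gata3 and Tcf7 were lower in T cells that carried Cd8 transcripts than in T cells that carried Cd4 transcripts in all 4 libraries. Lef1 was lower there as well, but within counting error in C1 and by little in C3. Tox, Id2 and Id3 changed order between these T cells from library to library, beyond counting error.

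These proteins set which kind of lymphocyte a precursor becomes and how far it matures. T-bet (from Tbx21) and its relative Eomes drive interferon-gamma and cytotoxic programmes in T and NK cells, Runx3 is needed for the CD8 lineage, and GATA3 directs helper cells to the type 2 programme. TCF-1 (from Tcf7) and LEF1 keep T cells naive or memory-like, TOX is known from chronically stimulated CD8 T cells and from NK development, and ID2 and ID3 bind E proteins and keep them off DNA.

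CD45-positive cells had been sorted by flow cytometry from mice aged about 12 weeks, of which 4 carried the SS genotype and 4 were controls. Genotype is labelled just SS or control, SS is not spelled out, and no strain, allele or agent is named. Gene expression was sequenced for 4 of the 8 samples and T cell receptors, not analysed here, for the other 4, so that every genotype in every tissue has 1 sample of either kind. The 4 groups with expression data are therefore SS gland, SS lymph node, control gland and control lymph node, each a single library with the number of mice in it not stated. No label ties the files, called C1, C2, C3 and C4, to these groups, so no SS against control and no gland against lymph node comparison was made. With no replicate there is no test. Classes of cells were compared within a library, and each library's value is given.

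A barcode, the tag that marks one droplet or well, was kept with at least 500 unique molecular identifiers (UMIs, each 1 counted RNA molecule), no fewer than 300 genes and mitochondrial UMIs of 10% or less. This kept 5067 to 8532 barcodes per library, with median depths of 4939 to 8076 UMIs. T cells were taken from UMIs of Cd3 and T cell receptor constant genes and divided into Cd4-only T cells (a Cd4 UMI and no Cd8a or Cd8b1 UMI) and Cd8-only T cells (the reverse). NK cells had at least 4 of 6 NK genes and at most 2 UMIs of Cd3 genes and Trac. This gate cannot separate NK cells from type 1 innate lymphoid cells. From C1 to C4 there were 256, 691, 1197 and 1555 Cd4-only T cells, 216, 2140, 5245 and 1048 Cd8-only T cells, and 1047, 295, 21 and 26 NK cells. NK values of C3 and C4 thus rest on few barcodes. All 6 T markers were found in both T classes of each library, and all 6 NK markers in each NK class. The 4 B cell markers summed to at most 25.4 CPM in any of these classes and the 7 macrophage markers to at most 101 CPM, with Fcgr1 at 0 in most of them. These values follow in part from the gates, which call for T or NK genes and cap B and macrophage markers. The NK genes were not capped in T cells. They summed to 5208 CPM in Cd8-only T cells of C2, the most of any T class, against 6510 CPM in NK cells there. None of the 10 factors was used to define a class. Of 24863 distinct barcode sequences, 307 were kept in more than 1 library.

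Salivary gland transcripts were present in C1 and C2 and nearly absent from C3 and C4. The 6 salivary markers summed to 25785 CPM in Cd8-only T cells of C1, against 5686 CPM in Cd4-only T cells and 4421 CPM in NK cells there. Per barcode the medians were alike, at 4306 CPM in Cd8-only T cells, 5832 CPM in Cd4-only T cells and 4067 CPM in NK cells. Of the 216 Cd8-only T cells of C1, 17 held over 10 salivary UMIs per 1000. In the classes of C2 they summed to 11286 to 12113 CPM, and in every class of C3 and C4 to at most 7.25 CPM. Free RNA, estimated from barcodes with too few UMIs to hold a cell, was scaled by these transcripts in C1 and C2, and no such estimate was made for C3 and C4. In C1 and C2 it could supply at most 12.4% of any factor's level, for Zeb2 in Cd8-only T cells of C1. Next came 7.96% and 7.85% for Zeb2 in the Cd8-only and Cd4-only T cells of C2. These bounds use the summed salivary level of a class, not its median.

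Levels are in CPM, which scales a gene's summed UMIs to 1000000 UMIs of its class and library. Each has an exact Poisson 95% interval, and each ratio of levels an exact 95% interval. These intervals reflect counting error alone, with each UMI taken as independent. They say nothing of the spread from cell to cell or from mouse to mouse. The median ratio over all genes compared, Cd8-only over Cd4-only T cells, was -0.14, -0.06, -0.35 and -0.09 on the log2 scale from C1 to C4, so ratios in C1 and C3 are to be read against a shift of more than 0.1. For NK over Cd8-only T cells it was 0.18 in C1 and 0.07 in C2.

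**Figure D1:**
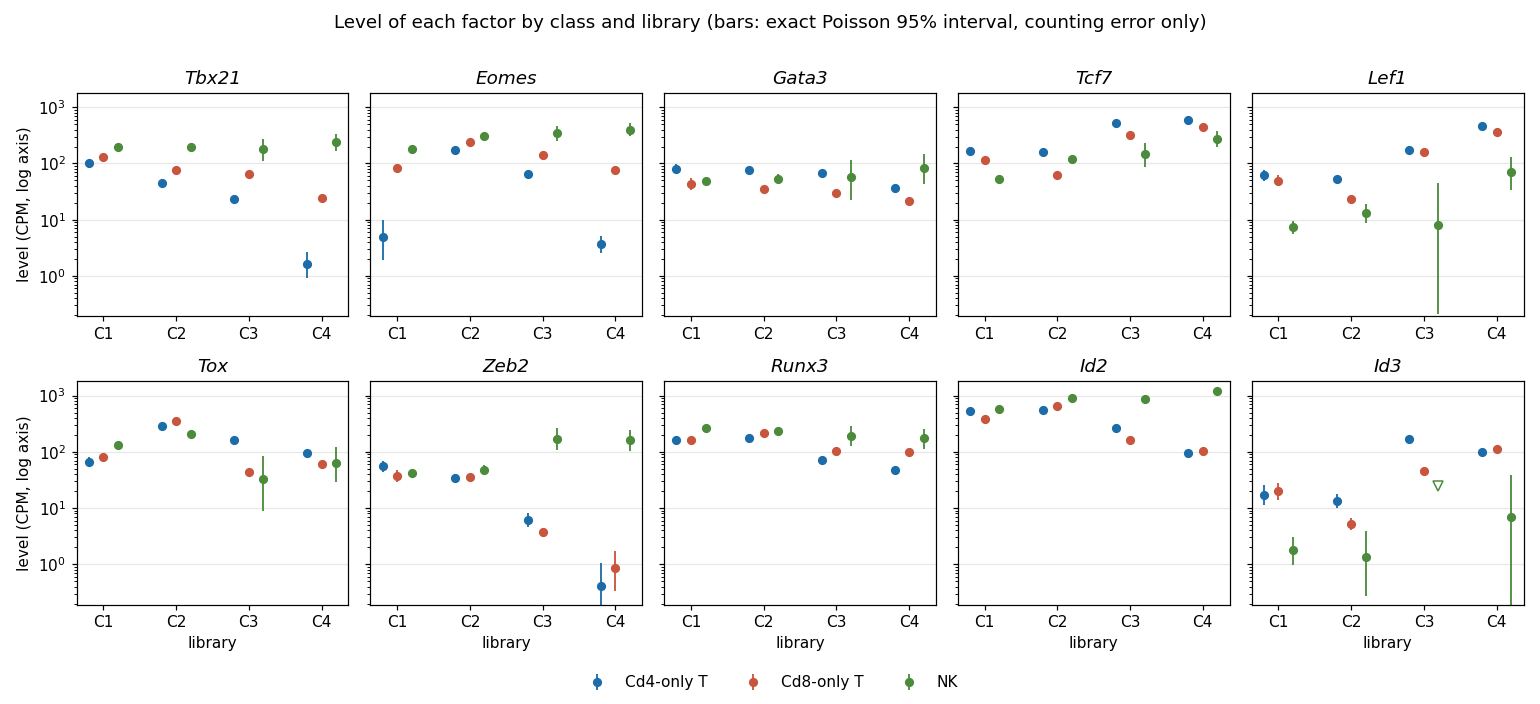
Level of each factor (CPM, log axis) in Cd4-only T cells, Cd8-only T cells and NK cells of libraries C1 to C4; points are summed UMIs per 1000000, bars exact Poisson 95% intervals, and the open triangle marks a count of 0 drawn at the level of 3 UMIs. Tbx21, Eomes, Runx3 and Id2 are highest in NK cells of each library, and Tcf7 and Lef1 are higher in both T classes of C3 and C4 than of C1 and C2.

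The upstream sequences of 4 factors are shown because their levels paired up across the classes and libraries. Lef1 and Id3 ran together, and Runx3 and Id2 ran together and opposite to them (correlations below). They are not the closest pairs: Zeb2 with Id2 and Tcf7 with Lef1 reached 0.947 and 0.941, Lef1 with Id3 0.935 and Runx3 with Id2 0.874. Each is the 250 bases before the annotated start, 5′ to 3′ on the gene's strand, from RefSeq on build GRCm38.p6. Capitals mark any match, on either strand, to CANNTG (the E-box that ID proteins keep E proteins from), CACCTG (an E-box form that ZEB proteins bind, counted within the former as well), CTTTGA for TCF and LEF proteins, GGTGTG for T-box proteins, TGTGGT for RUNX proteins, or AGATAA for GATA proteins.
Lef1, chr3:131110047-131110296, plus strand: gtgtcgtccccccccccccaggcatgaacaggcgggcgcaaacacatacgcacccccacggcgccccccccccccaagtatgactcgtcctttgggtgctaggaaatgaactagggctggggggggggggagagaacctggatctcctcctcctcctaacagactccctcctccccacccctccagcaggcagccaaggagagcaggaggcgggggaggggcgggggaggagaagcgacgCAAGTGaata
Runx3, chr4:135120395-135120644, plus strand: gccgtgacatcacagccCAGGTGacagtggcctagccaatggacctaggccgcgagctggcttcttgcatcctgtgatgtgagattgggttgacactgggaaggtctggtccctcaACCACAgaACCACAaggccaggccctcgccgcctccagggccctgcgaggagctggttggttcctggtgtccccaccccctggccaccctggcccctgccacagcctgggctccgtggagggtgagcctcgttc
Id2, chr12:25096093-25096342, minus strand: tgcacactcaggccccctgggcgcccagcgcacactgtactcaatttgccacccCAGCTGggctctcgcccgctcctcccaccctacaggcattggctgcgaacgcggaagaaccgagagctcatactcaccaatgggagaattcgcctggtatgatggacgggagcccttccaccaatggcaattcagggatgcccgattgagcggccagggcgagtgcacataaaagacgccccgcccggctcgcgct
Id3, chr4:136143572-136143821, plus strand: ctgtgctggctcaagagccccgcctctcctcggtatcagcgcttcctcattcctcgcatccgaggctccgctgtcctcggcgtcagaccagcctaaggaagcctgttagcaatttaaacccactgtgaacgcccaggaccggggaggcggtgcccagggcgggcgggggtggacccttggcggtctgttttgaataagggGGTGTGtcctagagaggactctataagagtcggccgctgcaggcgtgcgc
Runx3 held 2 TGTGGT matches, both read as ACCACA here, and 1 CACCTG. Lef1 and Id2 each held 1 CANNTG and none of the other 5 motifs. Id3 held 1 GGTGTG and no E-box. Among 27025 RefSeq promoters of this length, TGTGGT occurred in 14.2%, CACCTG in 17.1%, CANNTG in 66.1%, GGTGTG in 16.2%, CTTTGA in 14.1% and AGATAA in 10.2%. GC content was 66.4% in Lef1, 65.2% in Runx3 and 62.8% in both Id2 and Id3, against a median of 52% over all promoters. A match is a description of letters, not a binding site. Of the 10 factors, 9 had an entry and Tox had none.

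Tbx21 (ENSMUSG00000001444, chr11:97098007-97115331 on GRCm38.p6) encodes T-bet, the T-box factor of type 1 immunity. Its level in Cd4-only T cells was 100.2, 45.5, 23.2 and 1.61 CPM from C1 to C4. In Cd8-only T cells it was 129, 76.3, 64.9 and 24.3 CPM in the same order. NK cells held 194, 194, 179 and 239 CPM. Both T classes thus fell in the order C1, C2, C3, C4 with no overlap of neighbouring intervals, while the 4 NK levels overlapped their neighbours. Cd8-only over Cd4-only T cells, C1 gave a ratio of 1.28 (95% interval 1.04 to 1.60), C2 one of 1.68 (1.43 to 1.98), C3 one of 2.79 (2.41 to 3.25) and C4 one of 15.1 (9.04 to 26.8). NK over Cd8-only T cells, it was 1.51 (1.31 to 1.75), 2.54 (2.27 to 2.84), 2.75 (1.72 to 4.18) and 9.82 (6.62 to 14.2).

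Eomes (ENSMUSG00000032446, chr9:118478186-118486132), the second T-box factor, sustains NK maturation and CD8 memory. Cd4-only T cells held 4.84, 175, 64.3 and 3.63 CPM from C1 to C4. The Cd8-only T cells held 83.0, 238, 141 and 78.1 CPM, and NK cells 184, 304, 349 and 399.9 CPM. Every library had the order Cd4-only below Cd8-only below NK. Both T classes were highest in C2, then C3, and the intervals of C1 and C4 overlapped. The Cd8-only over Cd4-only ratio was 17.2 (8.11 to 43.5) in C1 and 21.5 (15.4 to 31.0) in C4, but 1.36 (1.25 to 1.48) in C2 and 2.19 (2.00 to 2.40) in C3. The C1 ratio rests on 7 Eomes UMIs in Cd4-only T cells, and over the alternative settings it ran from 3.62 to 5.18 on the log2 scale. Without the deepest 5% of barcodes the C4 ratio went from 4.43 to 5.08 on that scale. Eomes-bearing Cd4-only T cells were common in C2: at equal depth, with each barcode thinned to 3733 UMIs, 36.4% had an Eomes UMI, against 0.897% in C1, 11.2% in C3 and 0.840% in C4. Unthinned, the C1 to C4 shares were 1.56%, 41.1%, 16.3% and 1.29%. Macrophage-like barcodes, which should lack it, had 0.272% in C2 at equal depth. The 6 NK genes summed to 2836 CPM in Cd4-only T cells of C2, 773 in C1, 532 in C3 and 42.3 in C4, with Ncr1 and Klre1 at 0 in C3; their part in the Eomes level was not tested. Over the alternative settings the C2 level ran from 169 to 196 CPM.

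Runx3 (ENSMUSG00000070691, chr4:135120645-135177990) represses Cd4 in CD8 T cells and supports cytotoxic genes. Its level was 159.6, 174, 70.7 and 47.0 CPM in Cd4-only T cells from C1 to C4. Cd8-only T cells held 160.0, 213, 104 and 99.96 CPM. The NK levels of 265, 236, 195 and 175 CPM overlapped their neighbours. In C1 the T classes did not differ beyond counting error (ratio 1.002, 0.837 to 1.201), whereas Cd8-only T cells were higher in C2 (1.22, 1.12 to 1.33), C3 (1.47, 1.34 to 1.60) and C4 (2.13, 1.90 to 2.39). NK cells were above Cd8-only T cells by 1.66-fold in C1 (1.46 to 1.89) and 1.11-fold in C2 (1.01 to 1.21).

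Zeb2 (ENSMUSG00000026872, chr2:44983512-45117442) is a zinc-finger factor of terminally mature effector T cells and NK cells, and macrophages also express it. Cd4-only T cells held 55.3, 33.7, 6.15 and 0.404 CPM from C1 to C4, and Cd8-only T cells 37.9, 35.3, 3.77 and 0.846 CPM. The NK levels were 42.6, 47.5, 171 and 161 CPM. The T cell and NK levels therefore ran in opposite orders: both T classes were highest in C1 and C2, and NK cells in C3 and C4. In C3, NK cells were 45.3-fold above Cd8-only T cells (27.4 to 71.3), from 21 UMIs in 21 NK barcodes, and in C4 191-fold (79.2 to 526), from 23 UMIs in 26 NK barcodes against 7 in the Cd8-only T cells. Without the deepest 5% of barcodes, which left 2 Zeb2 UMIs in the Cd8-only T cells, the C4 ratio went from 7.58 to 8.48 on the log2 scale. In C1 the ratio was 1.12 (0.856 to 1.495), and in C2 1.35 (1.08 to 1.66), which turned to -0.13 on the log2 scale at equal depth. Macrophage-like barcodes held 351 to 804 CPM of Zeb2. The 7 macrophage markers summed to 101, 30.8, 7.75 and 1.41 CPM in Cd4-only T cells from C1 to C4, and to 61.3, 29.3, 2.09 and 0.484 CPM in Cd8-only T cells, in the order of the Zeb2 levels; their part in those levels was not tested. Macrophage markers in NK cells came to 4 UMIs in C3, with Csf1r, Adgre1 and Fcgr1 at 0, and to 2 UMIs in C4, with C1qa, Csf1r, Adgre1, Lyz2 and Fcgr1 at 0.

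Gata3 (ENSMUSG00000015619, chr2:9857078-9887953) is the type 2 helper factor and is also used in T cell development. Cd4-only T cells held 80.9, 77.0, 68.3 and 37.0 CPM from C1 to C4, and Cd8-only T cells 43.3, 35.7, 30.1 and 21.3 CPM. The NK levels were 48.0, 53.6, 56.9 and 84.2 CPM, all overlapping their neighbours. Cd8-only T cells were the lower T class in all 4 libraries, by 1.87-fold, 2.16-fold, 2.27-fold and 1.74-fold from C1 to C4. In both T classes the intervals of C1 and C2 overlapped and C4 was lowest. NK cells were within counting error of Cd8-only T cells in C1 (ratio 1.11, 0.859 to 1.45) and C3 (1.89, 0.759 to 3.90), and above them in C2 (1.502, 1.22 to 1.84) and C4 (3.96, 2.01 to 7.09).

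Tcf7 (ENSMUSG00000000782, chr11:52246527-52283383) encodes TCF-1, high in naive and central memory T cells. Cd4-only T cells held 164, 159, 536 and 586 CPM from C1 to C4. The Cd8-only levels were 114, 62.1, 322 and 443 CPM, and the NK levels 52.3, 120.0, 146 and 274 CPM. Both T classes were higher in C3 and C4 than in C1 and C2. Cd8-only T cells were below Cd4-only T cells by 1.44-fold, 2.56-fold, 1.66-fold and 1.32-fold from C1 to C4, with every interval off 1. NK cells were below Cd8-only T cells in C1 (2.17-fold), C3 (2.20-fold) and C4 (1.62-fold) but above them in C2 (1.93-fold, 1.68 to 2.22).

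Lef1 (ENSMUSG00000027985, chr3:131110297-131224357), the partner of TCF-1 from the same family, followed a like pattern at the level of T cells. Cd4-only T cells held 61.5, 53.1, 175 and 472 CPM, and Cd8-only T cells 49.3, 23.1, 162 and 364 CPM. NK cells held 7.46, 13.2, 8.13 and 70.2 CPM, of which the C3 value is 1 UMI. NK cells were the lowest class in every library. The NK level was below the Cd4-only level by 8.25-fold in C1 (ratio 0.12, 0.09 to 0.17) and 4.03-fold in C2 (0.25, 0.16 to 0.37). Cd8-only T cells were the lower T class in each library. The difference was within counting error in C1 (ratio 0.80, 0.59 to 1.09) and small in C3 (0.92, 0.87 to 0.98). In C3 it turned to 0.03 on the log2 scale with stricter marker gates. In C2 Cd8-only T cells were 2.30-fold lower, and in C4 1.30-fold lower (ratio 0.77, 0.74 to 0.81).

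Tox (ENSMUSG00000041272, chr4:6686353-6991557) is induced by lasting receptor stimulation. Cd4-only T cells held 66.3, 285, 165 and 93.5 CPM from C1 to C4. Cd8-only T cells held 79.4, 356, 43.6 and 61.0 CPM, and NK cells 132, 210.1, 32.5 and 63.1 CPM. C2 was the highest library in all 3 classes. The order of the T classes was not the same in each library: Cd8-only T cells were 1.25-fold higher in C2 (1.17 to 1.34), within counting error of Cd4-only T cells in C1 (1.197, 0.91 to 1.57), and lower by 3.78-fold in C3 and 1.53-fold in C4. NK cells of C1 exceeded Cd8-only T cells 1.66-fold (1.39 to 2.01), and those of C2 were 1.69-fold below them.

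Id2 (ENSMUSG00000020644, chr12:25093799-25096092), the inhibitor of E proteins that effector T cells, NK cells and other innate lymphoid cells require, was at 541, 545, 260.5 and 94.9 CPM in Cd4-only T cells from C1 to C4. In Cd8-only T cells it was at 388, 650.2, 165 and 105 CPM, and in NK cells at 571, 913, 861 and 1186 CPM. T cells of C1 and C2 were above those of C3 and C4, with the Cd4-only intervals of C1 and C2 overlapping. NK cells exceeded Cd8-only T cells by 1.47-fold (1.36 to 1.60), 1.40-fold (1.34 to 1.47), 5.22-fold (4.27 to 6.32) and 11.3-fold (9.53 to 13.3). In C1, NK and Cd4-only T cells did not differ beyond counting error (1.06, 0.98 to 1.14). The T classes changed order between libraries. Cd8-only over Cd4-only T cells, the ratio was below 1 in C1 (0.717, 0.645 to 0.797) and C3 (0.634, 0.604 to 0.665). It was above 1 in C2 (1.19, 1.14 to 1.25) and C4 (1.11, 1.01 to 1.21).

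Id3 (ENSMUSG00000007872, chr4:136143822-136145392), the related inhibitor, is a gene of naive and memory T cells and of B cells. Its level was 17.3, 13.4, 168 and 100.5 CPM in Cd4-only T cells and 19.8, 5.17, 44.7 and 114 CPM in Cd8-only T cells. NK cells had 14 UMIs in C1 (1.80 CPM), 3 in C2 (1.32 CPM), 0 in C3 (upper 95% bound 29.97 CPM), and 1 in C4 (7.02 CPM). In both T classes Id3 was higher in C3 and C4 than in C1 and C2, the reverse of Id2. Cd8-only T cells of C3 were 3.76-fold below Cd4-only T cells, those of C2 2.59-fold below, and those of C4 slightly above (1.13, 1.03 to 1.24). NK cells were 11.03-fold below Cd8-only T cells in C1 (ratio 0.0907, 0.0448 to 0.174) and 3.92-fold below in C2 (0.255, 0.0513 to 0.776). At equal depth the NK level was 2.94 CPM against 19.2 CPM in C1, and in C2 it was 1.01 CPM, from 1 UMI, against 5.75 CPM. B-like barcodes held 124 CPM in C3 and 181 CPM in C4, and the 4 B markers summed to 5.53 and 9.18 CPM in the Cd4-only T cells and 16.1 and 25.4 CPM in the Cd8-only T cells there; without barcodes that carried a B or macrophage marker, the Id3 ratios between T classes stayed within their intervals.

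**Figure D2:**
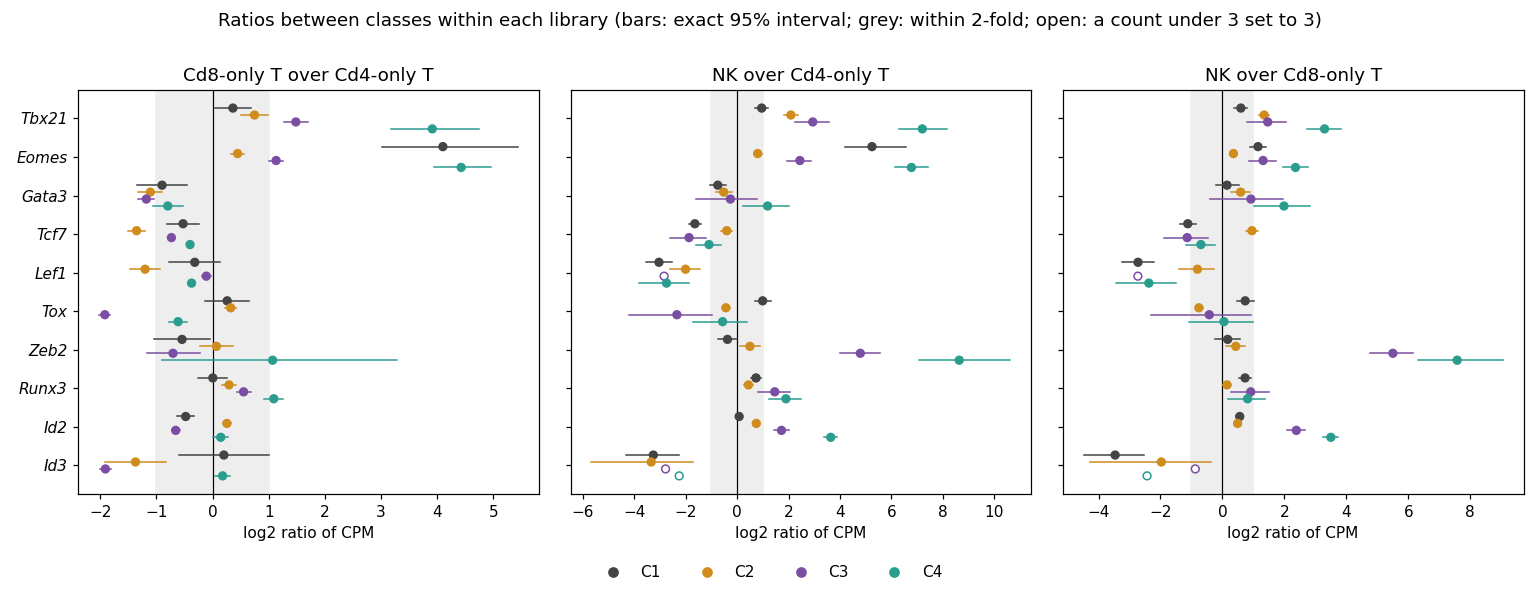
Log2 ratio of CPM between classes within each library for each factor; points are libraries, bars exact 95% intervals for counting error, the grey band spans 2-fold either way, and open points have a count under 3 set to 3. For Cd8-only over Cd4-only T cells, Gata3, Tcf7 and Lef1 lie left of 0 in every library, with the Lef1 interval of C1 spanning 0. Tbx21 and Eomes lie right of 0 in every library of all 3 panels.

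Counted by a fixed size, few factors stood past 2-fold in the same direction in every library compared. A gene was compared where both classes had at least 100 barcodes and together at least 20 UMIs of it in each such library, which is C1 to C4 for the T classes and C1 and C2 for NK cells. For Cd8-only over Cd4-only T cells, 0 of the 9 factors compared were past 2-fold higher and 0 lower, against 0.528% higher and 0.845% lower of 8522 genes. Zeb2, with too few UMIs in C4, was the factor not compared. For NK over Cd4-only T cells, 2 of 10 were lower, Lef1 and Id3, and 0 higher, where 5.66% of 9758 genes were lower and 5.46% higher. For NK over Cd8-only T cells, 1 of 10 was lower, Id3, and 0 higher, where 3.28% of 10148 genes were lower and 5.14% higher. At 1.5-fold the counts became 1 lower for the T classes (Gata3) and 2 higher for NK over Cd4-only T cells (Tbx21 and Eomes). For NK over Cd8-only T cells they became 1 higher (Tbx21) and 2 lower (Lef1 and Id3). The share over all genes was not computed at 1.5-fold, so these counts have no background to be read against. The median log2 ratio over the factors for Cd8-only over Cd4-only T cells was 0.003, 0.25, -0.66 and 0.14 from C1 to C4. For NK over Cd4-only T cells it was -0.15 in C1 and 0.02 in C2, against 0.03 and 0.006 over all genes. For NK over Cd8-only T cells it was 0.36 and 0.39, against 0.18 and 0.07.

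A list of 30 other fate factors gave more such genes. The list, as the 10 factors, was chosen with earlier results of these data known. Its counts beside the shares over all genes are therefore a description and test nothing. For Cd8-only over Cd4-only T cells, 5 of 26 compared were past 2-fold lower in all 4 libraries and 0 higher. Of 8522 genes, 0.845% were lower and 0.528% higher. The 5 were Rora (a factor of type 17 helper cells), Zbtb7b (ThPOK, the CD4 lineage factor), Runx1, Maf and Nr4a1 (an early gene of receptor signalling). Zbtb7b was at 35.2, 24.98, 40.7 and 56.2 CPM in Cd4-only T cells and at 6.01, 2.44, 0.750 and 2.54 CPM in Cd8-only T cells from C1 to C4. Maf was at 420.2, 344, 165 and 32.9 CPM in Cd4-only T cells against 14.4, 57.3, 5.61 and 4.23 CPM. Each of these 5 was thus past 2-fold in all 4 libraries. None of the 9 factors compared was, a count close to the shares of 0.845% and 0.528% over all genes. For NK over Cd4-only T cells, 10 of 29 compared were lower in both libraries, where 5.66% of 9758 genes were lower and 5.46% higher. Those lower included Rora, Foxp3, Prdm1, Zbtb7b, Ikzf2, Batf, Irf4, Maf and Tox2. Only Zfp683 (Hobit, a factor of tissue-resident lymphocytes) was higher, at 101 against 44.9 CPM in C1 and 107 against 8.41 CPM in C2. For NK over Cd8-only T cells, 4 of 26 were lower, namely Rora, Prdm1, Ikzf2 and Irf4, and 0 higher. Of 10148 genes, 3.28% were lower and 5.14% higher. Irf4 was at 0.257 against 60.7 CPM in C1 and 1.32 against 32.5 CPM in C2.

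At equal depth the share of barcodes with a Tcf7 UMI kept the order of its level. It was 34.5%, 30.9%, 78.5% and 83.1% of Cd4-only T cells from C1 to C4 (unthinned 37.9%, 32.0%, 81.0% and 90.8%). Of Cd8-only T cells it was 26.8%, 15.7%, 67.4% and 78.2% (unthinned 41.7%, 18.1%, 88.7% and 93.4%). Cells that should lack Tcf7 gave the background: macrophage-like barcodes had 0.0456% in C1 and 0.543% in C2, and B-like barcodes 0.714% in C3 and 0.556% in C4. For Id2 the shares were 80.6% of NK cells in C1 and 91.4% in C2, against 65.6% and 75.1% of Cd8-only T cells (unthinned 90.1% and 91.2%, against 80.1% and 82.1%). B-like barcodes gave its background from few barcodes. It was 7.59% in C1 (6 of 79, 2.84 to 15.8) and 4.17% in C2 (1 of 24, 0.105 to 21.1). For Runx3, which macrophages also express, 37.8% of macrophage-like barcodes of C1 had a UMI, beside 41.3% of Cd4-only and 42.1% of Cd8-only T cells (unthinned 48.3%, 52.3% and 63.4%). Thinning left out 33, 161, 243 and 126 Cd4-only T cells, 7, 370, 137 and 32 Cd8-only T cells and 44, 29, 2 and 8 NK cells from C1 to C4.

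Co-detection within a class was read as the share of barcodes with a second factor among those with and those without the first, at equal depth. Pairs with at least 20 barcodes expected together if the 2 factors were independent gave 252 values. The 95% Clopper-Pearson intervals lay apart in 17 for more and 28 for less co-detection; without thinning these became 68 and 27. No such count was made over pairs of other genes, so these counts have no background to be read against. Cells of 1 library are not replicates, and the values describe those libraries.

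Eomes gave the clearest divisions among Cd4-only T cells. Of Cd4-only T cells of C2 with an Eomes UMI, 9.33% (5.62 to 14.3) had a Tcf7 UMI, against 43.3% (38.0 to 48.8) of those without. In C3 the shares were 49.5% (39.7 to 59.4) and 82.2% (79.4 to 84.7). Eomes and Tcf7 were thus found together 0.301 and 0.631 times as often as independence gives. Lef1 also was less common with Eomes, at 7.77% against 19.6% in C2 and 23.4% against 45.9% in C3. Runx3 was more common with Eomes in both, at 52.85% against 40.1% in C2, where the intervals barely parted, and at 44.9% against 18.8% in C3. Id3 was less common with Eomes in C3, at 14.95% against 36.1%. Tox was more common with Eomes in C2, at 67.4% against 51.6%, and Id2 in C3, at 63.6% against 43.7%. In Cd8-only T cells Eomes and Tcf7 were together 1.07, 0.980 and 0.991 times as often as independence gives from C2 to C4, with no intervals apart. With 2 Eomes-bearing Cd4-only T cells in C1 and 12 in C4, the Cd4-only pairs could not be read there.

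NK cells showed the opposite pairing of Eomes and Tcf7. Of NK cells of C1 with Eomes, 25.3% (21.0 to 29.9) had Tcf7, against 6.90% (5.04 to 9.18) of those without, and in C2 36.8% (29.2 to 45.0) against 14.04% (8.24 to 21.8). This is 1.82 and 1.36 times the independent expectation. Tbx21 and Eomes in NK cells were independent within counting error, at 38.7% against 37.2% in C1 and 62.5% against 51.5% in C2. No other pair of NK cells with 20 or more expected together had intervals apart. The difference in this pairing between NK and Cd4-only T cells was not tested.

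In Cd8-only T cells, Tcf7 and Lef1 went together most in C2, where 18.7% (14.3 to 23.8) of Tcf7-bearing cells had Lef1 against 5.50% (4.39 to 6.78) of the rest, 2.47 times the independent expectation. In C3 the ratio to that expectation was 1.04, with 45.6% against 40.8%. Id2 was less common in Tcf7-bearing Cd8-only T cells of C1 (39.3% against 75.2%) and C2 (56.5% against 78.6%), and not apart in C3 and C4. Tox and Tcf7 were apart in C2, at 11.7% of Tox-bearing cells with Tcf7 against 22.4% of the rest, and not in C3 or C4. In C3, Id3 was found in 8.48% of Id2-bearing cells and 13.5% of the rest.

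**Figure D3:**
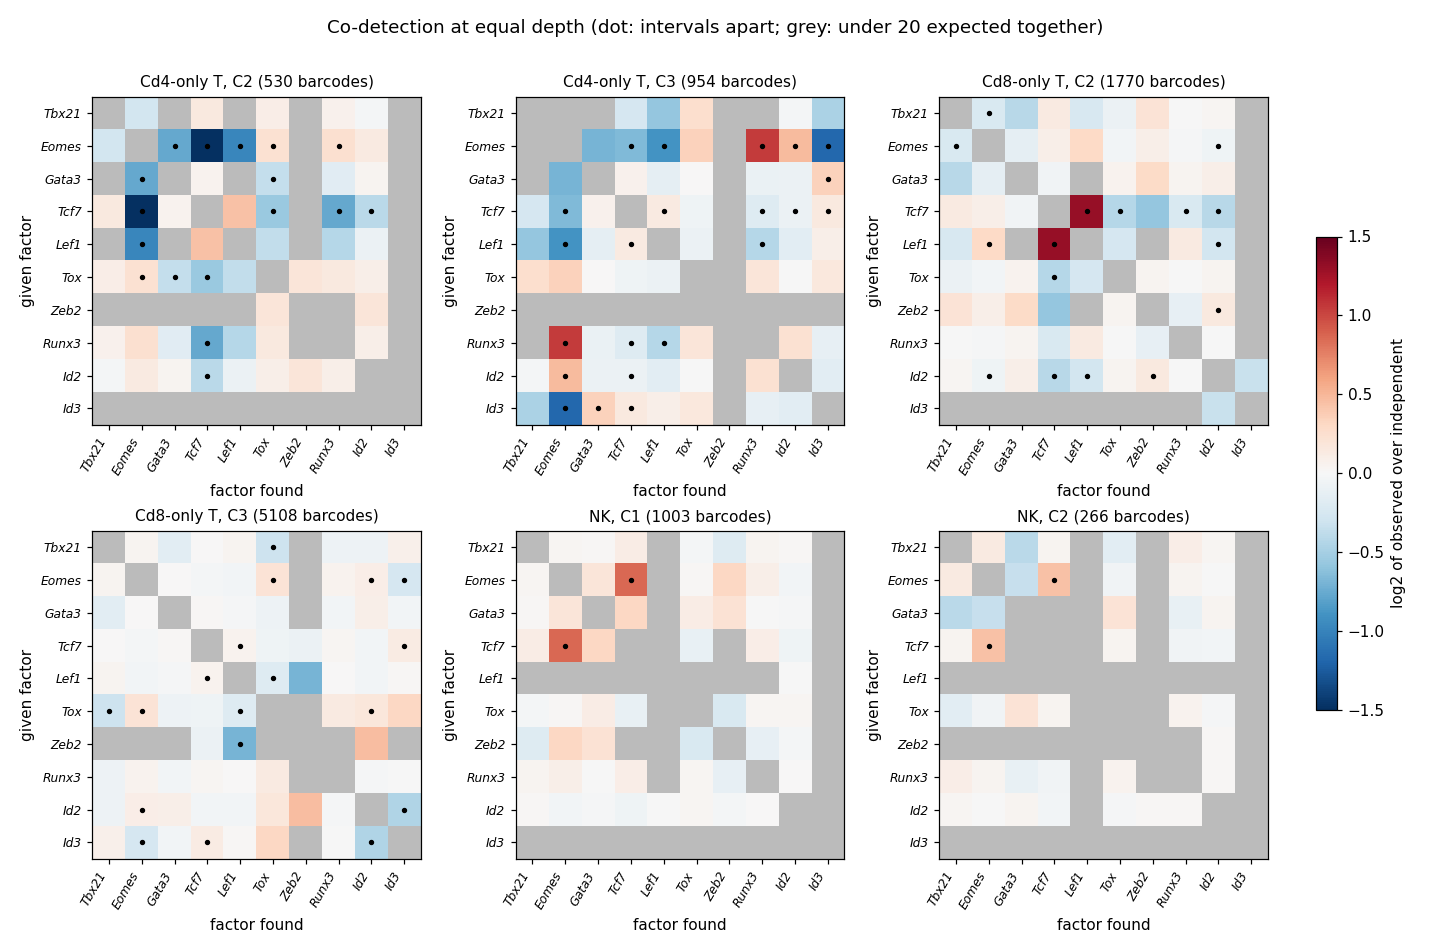
Co-detection of each pair of factors at equal depth in 6 classes with at least 266 barcodes, as log2 of the observed number over that expected if independent; dots mark 95% intervals apart and grey marks pairs with under 20 expected together. Eomes with Tcf7 is blue in Cd4-only T cells of C2 and C3 (0.301 and 0.631 times) and red in NK cells of C1 and C2 (1.82 and 1.36 times).

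The factors were next set against single genes that mark states of each class, comparing cells with and without a UMI of the marker. Such cells can differ in depth: the median was 5460 UMIs in Cd4-only T cells of C3 with Ccr7 and 4893.5 without, and 6563 in Cd8-only T cells of C3 with Pdcd1 and 9012 without. Ccr7 guides naive and central memory T cells into lymph nodes. Cd4-only T cells with Ccr7 had more Lef1 in all 4 libraries, at 291 against 33.4 CPM in C1, 110.1 against 47.4 for C2, 235 against 117 for C3, and 492 against 333 for C4. Tcf7 was higher with Ccr7 in the same 4 libraries, from 4.81-fold in C1 to 1.11-fold in C4, and Id2 was lower in all 4, from 2.34-fold in C1 to 1.46-fold in C3. Id3 did not keep one direction: it was higher with Ccr7 in C1 (75.9 against 10.1 CPM) and C2 (34.8 against 11.3 CPM), and lower in C4 (93.0 against 153 CPM). Cd8-only T cells with Ccr7 had more Lef1 in all 4 libraries as well, from 9.04-fold in C1 to 1.28-fold in C3. C1 had 27 Ccr7-bearing Cd4-only and 23 Cd8-only T cells, and C2 51 and 42.

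Pdcd1 encodes PD-1, an inhibitory receptor of stimulated T cells. Cd8-only T cells with Pdcd1 had more Tox in all 4 libraries, at 128 against 64.5 CPM in C1, 405 against 172 for C2, 168 against 38.2 for C3, and 229 against 57.4 for C4, from 54, 1611, 214 and 17 Pdcd1-bearing cells. Id2 was higher with Pdcd1 in all 4 libraries too, from 1.27-fold in C1 to 2.51-fold in C3. Tcf7 was lower in C2 (35.7 against 161 CPM) and in C3 (241 against 326 CPM). Eomes went in both directions, 218 against 314 CPM in C2 and 214 against 138 CPM in C3, and so did Id3, 3.28 against 12.2 CPM in C2 and 120.3 against 41.4 CPM in C3. Gzmk, a granzyme, divided the Cd8-only T cells of C2 and C3 by Eomes, with 251 against 116 CPM in C2 and 275 against 127 CPM in C3. In C1 the separate intervals of the 2 levels overlapped, although the interval of their ratio lay off 1. The log2 ratio there was 0.58 and became 1.35 at equal depth. Ccl5, an effector chemokine, was found in 2128 of 2140 Cd8-only T cells of C2, but in C4 it divided Tbx21 at 63.2 CPM in 283 cells with it against 5.55 CPM in 765 without, a log2 ratio of 3.51 that became 4.23 at equal depth.

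Cxcr6 marks lymphocytes that settle in tissue. Cd4-only T cells with Cxcr6 had less Tcf7, Lef1 and Id3 and more Id2 in all 4 libraries; Id2 was at 627 against 236 CPM in C1, 623 against 431 for C2, 379 against 244 for C3, and 395 against 85.1 for C4. Foxp3 marks regulatory T cells. Foxp3-bearing cells had less Tcf7 in C2 (69.5 against 166 CPM), C3 (231 against 554) and C4 (199.2 against 624). The C3 difference of -1.26 on the log2 scale was -0.67 without cycling cells. Foxp3-bearing cells had in C2 more Gata3 (198 against 67.7 CPM, 35 cells with Foxp3). Il17a, the cytokine of type 17 cells, was found in 38 Cd4-only T cells of C1 and 19 of C2. These had more Zeb2, at 139 against 42.3 CPM in C1 and 133 against 30.2 CPM in C2. These values rest on 27 and 17 Zeb2 UMIs.

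NK cells were divided by Itga1 and Gzmc, genes of tissue-resident NK cells and type 1 innate lymphoid cells. In C1, 878 of 1047 had a UMI of either, and in C2 223 of 295. These had less Eomes, at 153 against 366 CPM in C1 and 261 against 453 CPM in C2. They also had less Tcf7, at 33.4 against 162 CPM in C1 and 96.3 against 202 CPM in C2, and less Lef1, at 4.52 against 24.6 CPM and 8.50 against 29.4 CPM. Tbx21, Runx3, Id2 and Tox were not apart in either library. A UMI of Trdc, a gamma-delta T cell gene, was in 12.9% of NK cells in C1 and 13.9% in C2; its part in these values was not tested.

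**Figure D4:**
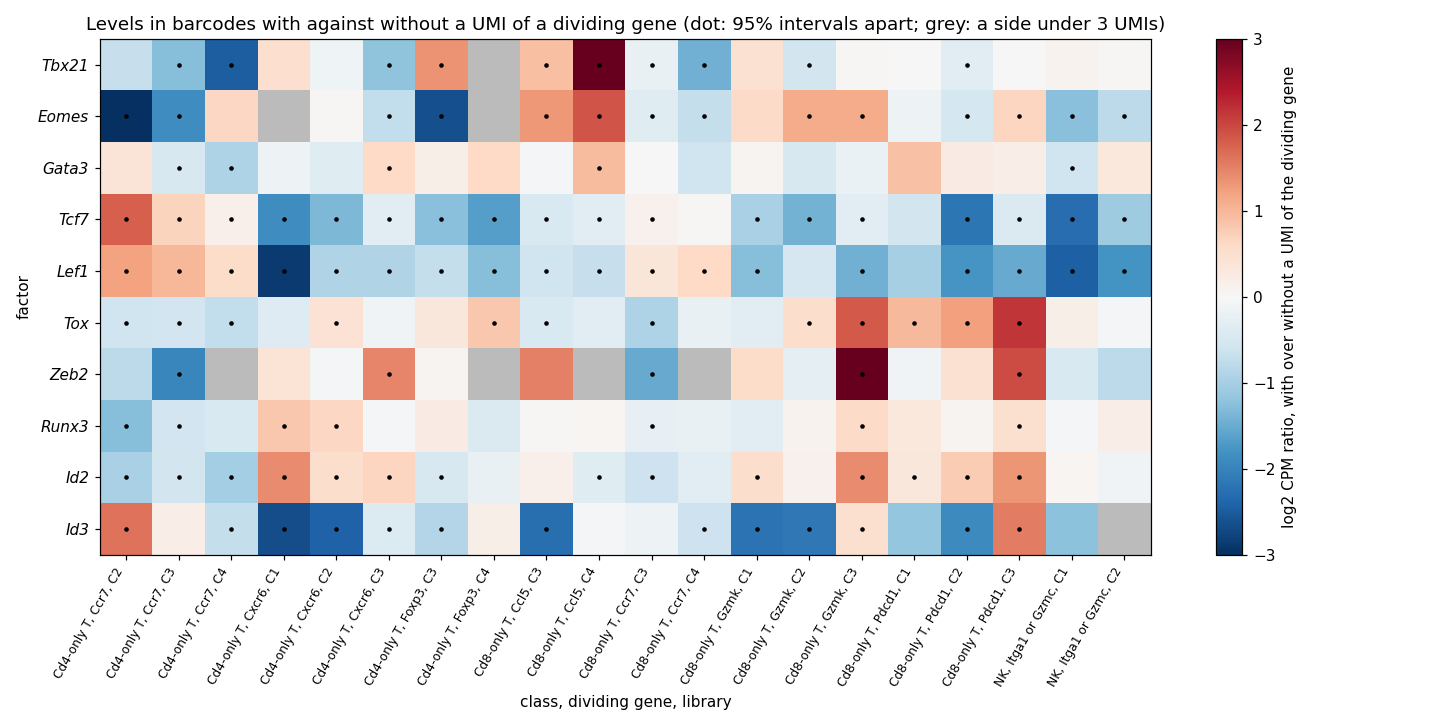
Log2 ratio of CPM for each factor in barcodes with over without a UMI of a dividing gene, for divisions with at least 50 barcodes on both sides; columns are class, dividing gene and library, dots mark 95% intervals apart, and grey marks fewer than 3 UMIs on a side. Tox is red with Pdcd1 in C1, C2 and C3 (1.98-fold, 2.35-fold and 4.41-fold), and Eomes, Tcf7 and Lef1 are blue in NK cells with Itga1 or Gzmc.

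Across the 10 class and library profiles with at least 100 barcodes, the factors formed opposed groups. Pearson correlations of log2(CPM + 10) were 0.94 for Tcf7 with Lef1, 0.94 for Lef1 with Id3 and 0.94 for Tcf7 with Id3. They were 0.95 for Zeb2 with Id2, 0.91 for Tbx21 with Runx3 and 0.87 for Runx3 with Id2. Between the groups they were -0.94 for Lef1 with Runx3, -0.94 for Lef1 with Id2 and -0.87 for Id2 with Id3. Eomes, Gata3 and Tox stood between, with correlations to the other factors from -0.61 to 0.64 for Eomes, -0.39 to 0.60 for Gata3 and -0.53 to 0.63 for Tox. The profiles share 4 libraries and their free RNA, and those of NK cells come from C1 and C2 alone. Cycling cells, with a Mki67 or Top2a UMI, were 24.2%, 25.6%, 20.2% and 5.21% of Cd4-only T cells from C1 to C4; leaving them out turned around no class ratio whose interval lay off 1.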

How the data were processed

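The deposited matrices hold whole-number UMI counts per gene and barcode, not normalized. Their headers name Cell Ranger 4, while the notes of the submitters on processing list Cell Ranger 6.1.2, STAR 2.7.10a and mm10; no source explains the difference. Gland, but not lymph node, went through collagenase per the labels' protocols, which name BD Rhapsody, whereas the design text names 10x; barcodes have 16 bases. Library totals were 48439860, 44798843, 77819179 and 37902916 UMIs from C1 to C4.

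UMIs were summed per class and library and scaled to CPM (Python 3.11.15, numpy 2.4.6, scipy 1.17.1, pandas 2.3.3, matplotlib 3.10.9). T cells needed at least 5 Cd3 UMIs, 1 receptor constant UMI, at most 2 B marker UMIs and under 3 macrophage marker UMIs per 1000. B-like barcodes had at least 8 B marker UMIs and macrophage-like ones at least 5 macrophage marker UMIs per 1000. These gates were set after marker counts had been seen, not from the 10 factors. No doublet caller was run; doublets were treated through alternatives. Shares used thinning to 3733 UMIs. The members and lists were chosen with earlier results of these data known. Named genes are the 10 factors, other factors past 2-fold in all libraries compared, and the 3 genes most like each factor. One member of the list of other factors is not reported here. Scripts were tested on simulated data.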

Additional observations from a re-analysis of the deposited data

How the results depend on the processing

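Results were recomputed under 14 alternatives: deeper or cleaner barcodes, stricter marker gates, leaving out the deepest 5%, marker-positive, shared or cycling barcodes, per-barcode means, equal depth or none, 1.5-fold, and a lower count minimum. Leaving out barcodes over 10 salivary UMIs per 1000, or those with Trdc among T cells, was added after seeing the data. Of 312 class and subset ratios, 240 had an interval off 1, and of their 2632 values under alternatives 9 changed sign and 54 moved by over 1.5 times. One of the 54 is that of Eomes in Cd8-only over Cd4-only T cells of C4 (log2 5.08 without the deepest 5% of barcodes, against 4.43). At 1.5-fold the counts of factors were 1 lower for Cd8-only over Cd4-only T cells and 2 higher for NK over Cd4-only T cells. They were 1 higher and 2 lower for NK over Cd8-only T cells, with no share over all genes computed at that fold. At 2-fold the count lower for NK over Cd8-only T cells was 1, and 2 without cycling barcodes. It was 0 at equal depth, where the 1 Id3 UMI left in NK cells of C2 was set to 3, so that the fold is a bound. Pairs found together more often rose from 17 to 68 without thinning.

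On the log2 scale, Lef1 in Cd8-only over Cd4-only T cells of C3 turned from -0.11 to 0.028 with stricter gates, and Zeb2 in NK over Cd8-only T cells of C2 from 0.43 to -0.13 at equal depth. Within Cd4-only T cells of C3, Tbx21 with Foxp3 turned from 1.35 to -0.66 without the deepest 5% and to -0.10 without cycling barcodes. Id3 with Foxp3 there turned from -0.88 to 0.029 as a mean per barcode, and Id3 with Ccr7 from 0.20 to -0.050 without the deepest 5%, -0.088 at equal depth and -0.051 without cycling barcodes. Id2 with Gzmk in Cd8-only T cells of C2 turned from 0.13 to -0.038 without cycling barcodes. Without thinning, co-detection turned for Gata3 with Tox in Cd4-only T cells of C2 (0.0027), for Tbx21 with Eomes (0.013) and Eomes with Id2 (0.0059) in Cd8-only T cells of C2, and for Tbx21 with Tox in those of C3 (8.6e-05). The cause was not tested for any of these. No paired analysis was possible because each combination of genotype and tissue has 1 sample and no library could be tied to one. The number of barcodes limits NK values of C3 and C4, where 21 and 26 barcodes gave 0 and 1 Id3 UMIs.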

Other observations

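The genes whose levels ran most like each factor's over the 10 class and library profiles, by Pearson correlation of log2(CPM + 10) among 10517 genes with at least 200 UMIs, gave a description with no test. Tbx21 ran most like Sorl1 (0.97), Sytl3 (0.97) and Stat4 (0.95), the last of which transmits interleukin-12 signals. Eomes ran most like Tapbpl (0.94), Psmb10 (0.94) and Cst7 (0.93), of which Psmb10 is an immunoproteasome subunit and Cst7 a cystatin of cytotoxic cells. Lef1 ran most like Srpk1, Alkbh4 and Tdrp (0.99, 0.99 and 0.98), Tcf7 like Saysd1, Rap2b and Dennd2d (0.98, 0.97 and 0.96), and Id3 like Enoph1, Dtx1 and Map7 (0.98, 0.97 and 0.97), Dtx1 being a regulator of Notch signalling. Runx3 ran most like Mbnl1, Sla2 and Cd164 (0.98, 0.96 and 0.95). Tox ran most like Hist1h4d and Hist1h1e, histone genes of dividing cells (0.97 and 0.96), and Capza1 (0.95). Gata3 ran most like Mlec, Uba1 and Nfkbib (0.95 each), Zeb2 like Plekhf1, Dnajc1 and AU020206 (0.99, 0.99 and 0.98), and Id2 like Nucb1, Dubr and Scly (0.99, 0.98 and 0.98). The profiles share libraries, depth and free RNA.

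Outside T and NK cells, several of the factors were well measured. Id2 was at 479 CPM in macrophage-like barcodes of C1 and 254 CPM in C2, and Runx3 at 138 and 128 CPM there. Zeb2 was at 52.2 CPM in B-like barcodes of C3 and 58.4 CPM in C4. Tcf7, Lef1, Gata3 and Eomes were at most 6.71 CPM in the B-like and macrophage-like classes, leaving out the 14 macrophage-like barcodes of C4, which had no UMI of them, with an upper 95% bound of 34.1 CPM.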
